A study of Mus musculus with 46 samples.

Results

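Integrins and the core proteins of focal adhesions were followed in 4 cell populations sorted from mouse kidney after sham surgery, unilateral ureteric obstruction (UUO) or reversal of the obstruction (rUUO). The members were every row whose gene symbol is that of an integrin α or β subunit, together with talin, vinculin, the kindlins, ILK, PINCH-1 (Lims1), the parvins, paxillin, FAK (Ptk2) and zyxin. They came to 41 of the 53465 rows of the deposited table, 27 of them integrin subunits and 14 of them adaptors and kinases. The 41 rows carried 40 symbols, because Itgam has a second gene model on the same strand of chromosome 7 (128062683 to 128128160, GRCm38) that overlaps the first (128062640 to 128118491). Reads from the shared part cannot be assigned to either model with certainty.

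Integrins are pairs of an α and a β subunit that span the cell membrane, and the pair decides the ligand. Pairs with β1 bind collagens, laminins and fibronectin, pairs with αv bind fibronectin, vitronectin and latent TGF-β, and pairs with β2 are found on leukocytes. Talin and kindlin bind the β tail and switch the integrin to its active form, vinculin reinforces the link from talin to actin, and the complex of ILK, PINCH and parvin, with paxillin, FAK and zyxin, joins the site to the cytoskeleton and to signalling. In the kidney α8β1 is known on mesangial and interstitial cells, where nephronectin is its ligand, and αvβ6 on epithelium, where it can activate latent TGF-β.

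The mice were wild-type male C57BL/6 animals of 8 to 12 weeks. Proximal tubular (PT) cells were sorted as LTL+, macrophages as F4/80+, endothelial cells as CD31+ and stromal cells as PDGFRB+. Kidneys of the UUO groups were collected at 2 or 7 days, and the labels do not give the day of a sample. Kidneys of the rUUO groups were collected 14 days after reversal. The comparison asks which members differ between sorted populations, which change with obstruction and which remain changed after reversal. PT samples numbered 3 sham, 4 UUO and 3 rUUO, macrophage samples 4, 4 and 3, endothelial samples 4, 3 and 4, and stromal samples 4 in each group. One PT library titled with both SHAM and UUO was placed with UUO, as its treatment label says. A marker sorts a gate and not a pure cell type, so PDGFRB+ cells can include mesangial cells, pericytes and fibroblasts.

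Values were FPKM, a level scaled to the length of each transcript and to the size of each library, with no read counts, so absolute depth is unknown and a value of 0 is only listed as 0. Relative depth, estimated from the steps between low values, ran from 0.58 to 1.63 over the 44 samples. Each population expressed its own 7 defining markers at a mean of at least 1 FPKM. Mitochondrial genes took 58.7% to 75.6% of the FPKM sum in PT samples and 20.2% to 45.8% in the others, so less of each PT library was left for other genes. In bulk samples fewer cells of a type and less RNA per cell cannot be told apart. Tests were made with limma on log2(FPKM + 1). Genes entered where their average in the population reached 1 FPKM, p-values were adjusted over all of them by Benjamini-Hochberg, and the threshold was 0.05. This filter passed 22 of the 41 rows in PT cells, 30 in macrophages, 29 in endothelial cells and 32 in stromal cells. Itgad and Itgae passed in none. With 1 added before the log, changes of weakly expressed genes come out too small.

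The promoters shown here were chosen after the values were seen. CArG boxes, the sites of serum response factor, stood in the RefSeq promoters of 3 members, Vcl, Fermt2 and Itgb6. These were among the 8 members that rose in PT cells after UUO. The promoters of Itga3, Itgav, Itgb1 and Zyx, which rose as well, held no CArG box. For Itgb6 the box stood at the second of 2 starts only, and the promoter of the first (chr2:60722554-60722853, minus strand) held none. In stromal cells Vcl and Itgb6 fell after UUO, and in PT cells the calls of Vcl and Fermt2 were lost after quantile normalization (adjusted p = 0.0509 and 0.121). The promoters of Itga8 and Itga4 are shown because these genes had the largest changes of all members. Each runs 5′ to 3′ on the gene's own strand from 250 bases before to 50 bases after the start (GRCm38.p6), and capitals mark the CArG box where there is one. Vcl lies at chr14:20929148-20929447 on the plus strand, Fermt2 at chr14:45530016-45530315 on the minus strand, the second of 2 Itgb6 starts at chr2:60673644-60673943 on the minus strand, Itga8 at chr2:12301895-12302194 on the minus strand and Itga4 at chr2:79255176-79255475 on the plus strand.
Vcl: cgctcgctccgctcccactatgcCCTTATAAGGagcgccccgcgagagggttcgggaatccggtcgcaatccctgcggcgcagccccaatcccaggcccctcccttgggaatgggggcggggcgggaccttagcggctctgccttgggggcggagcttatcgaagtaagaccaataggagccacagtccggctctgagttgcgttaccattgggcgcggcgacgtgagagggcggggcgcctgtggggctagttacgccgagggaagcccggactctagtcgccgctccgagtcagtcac
Fermt2: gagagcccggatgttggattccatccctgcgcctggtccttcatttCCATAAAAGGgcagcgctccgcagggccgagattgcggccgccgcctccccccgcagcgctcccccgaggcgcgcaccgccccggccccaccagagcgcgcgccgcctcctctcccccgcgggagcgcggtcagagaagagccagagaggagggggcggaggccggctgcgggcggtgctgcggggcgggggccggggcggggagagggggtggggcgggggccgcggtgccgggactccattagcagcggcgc
Itgb6: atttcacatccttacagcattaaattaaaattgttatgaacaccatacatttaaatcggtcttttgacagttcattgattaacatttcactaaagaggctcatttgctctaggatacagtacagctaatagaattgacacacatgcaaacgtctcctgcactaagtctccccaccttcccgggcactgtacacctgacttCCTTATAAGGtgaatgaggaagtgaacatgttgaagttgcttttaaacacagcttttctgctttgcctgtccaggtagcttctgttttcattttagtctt
Itga8: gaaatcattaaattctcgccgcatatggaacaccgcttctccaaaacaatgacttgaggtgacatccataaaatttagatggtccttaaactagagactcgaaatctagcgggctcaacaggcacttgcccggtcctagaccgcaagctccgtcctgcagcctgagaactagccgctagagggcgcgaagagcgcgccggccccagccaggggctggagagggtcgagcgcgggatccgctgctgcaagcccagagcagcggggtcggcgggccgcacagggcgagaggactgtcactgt
Itga4: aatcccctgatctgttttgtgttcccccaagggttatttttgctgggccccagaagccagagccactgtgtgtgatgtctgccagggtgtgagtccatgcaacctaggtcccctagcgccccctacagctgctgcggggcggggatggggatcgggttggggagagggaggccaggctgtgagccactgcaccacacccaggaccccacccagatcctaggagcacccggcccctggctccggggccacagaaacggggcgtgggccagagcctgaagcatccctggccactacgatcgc

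The CArG box began 227 bases before the start of Vcl, 204 before that of Fermt2 and 50 before the second start of Itgb6. It was found in 3 of the 34 member promoters (28 symbols), or 8.82%, and in 1.63% of all 32851 RefSeq promoters of the same length. The TEAD motif GGAATG was found in 3 of 34 against 14.7% of all promoters, the AP-1 motif TGANTCA in 4 of 34 against 7.81%, and the PU.1 core GAGGAA in 12 of 34 against 28.3%, on both strands. Motifs of 2 kinds overlapped at 1 place in the member promoters. The Itga8 and Itga4 promoters held none of these motifs. A match is a description of the letters only.

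Tln2, the paralog of Tln1, is also the host of a microRNA. The mature mmu-miR-190a-5p lies on the same strand as Tln2, at chr9:67236700-67236721 (minus strand), and overlapped no annotated exon of Tln2, so it is intronic. Capitals mark its seed, bases 2 to 8.
mmu-miR-190a-5p: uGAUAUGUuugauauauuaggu

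In sham kidneys the populations differed in their highest members, with some shared, and PT cells had the lowest levels of most members. PT cells were led by Itgb6, the β subunit of αvβ6, at 35.1 ± 11.8 FPKM (SD, n = 3), followed by Itga6 at 25.1 ± 3.14, Itgb1 at 18.8 ± 2.10, Parva at 15.8 ± 3.25, Ilk at 15.6 ± 0.76 and Tln1 at 15.4 ± 6.65. Macrophages were led by Itgb2, the shared β subunit of leukocyte integrins, at 148 ± 20.5 FPKM (n = 4), with Itga9 at 116 ± 16.4, Tln1 at 94.1 ± 9.83, Itgb1 at 89.8 ± 3.93, Itgam at 76.2 ± 12.4 and Parvg at 73.7 ± 1.30. The 2 sets shared Itgb1 and Tln1, which were also among the highest in endothelial and stromal cells.

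Endothelial cells were led by Itgb1 at 178 ± 31.9 FPKM (n = 4), Itga6, a laminin receptor subunit, at 106 ± 26.4, Fermt2 at 75.3 ± 16.1, Ilk at 68.0 ± 7.86, Itga3 at 54.6 ± 16.4 and Tln1 at 49.0 ± 13.1. Stromal cells were led by Itga8 at 293 ± 32.6 FPKM (n = 4), with Itgb1 at 224 ± 21.2, Vcl at 166 ± 47.9, Fermt2 at 97.4 ± 2.58, Ilk at 90.6 ± 18.4 and Tln1 at 82.8 ± 21.9. Within stromal cells the lowest Itga8 sample, 249 FPKM, lay above the highest Itgb1 sample, 242 FPKM. Ranges of Fermt2, Ilk and Tln1 overlapped there. Endothelial and stromal cells had Itgb1, Fermt2, Ilk and Tln1 in common, and Itga6 and Ilk were also among the highest in PT cells.

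**Figure D1:**
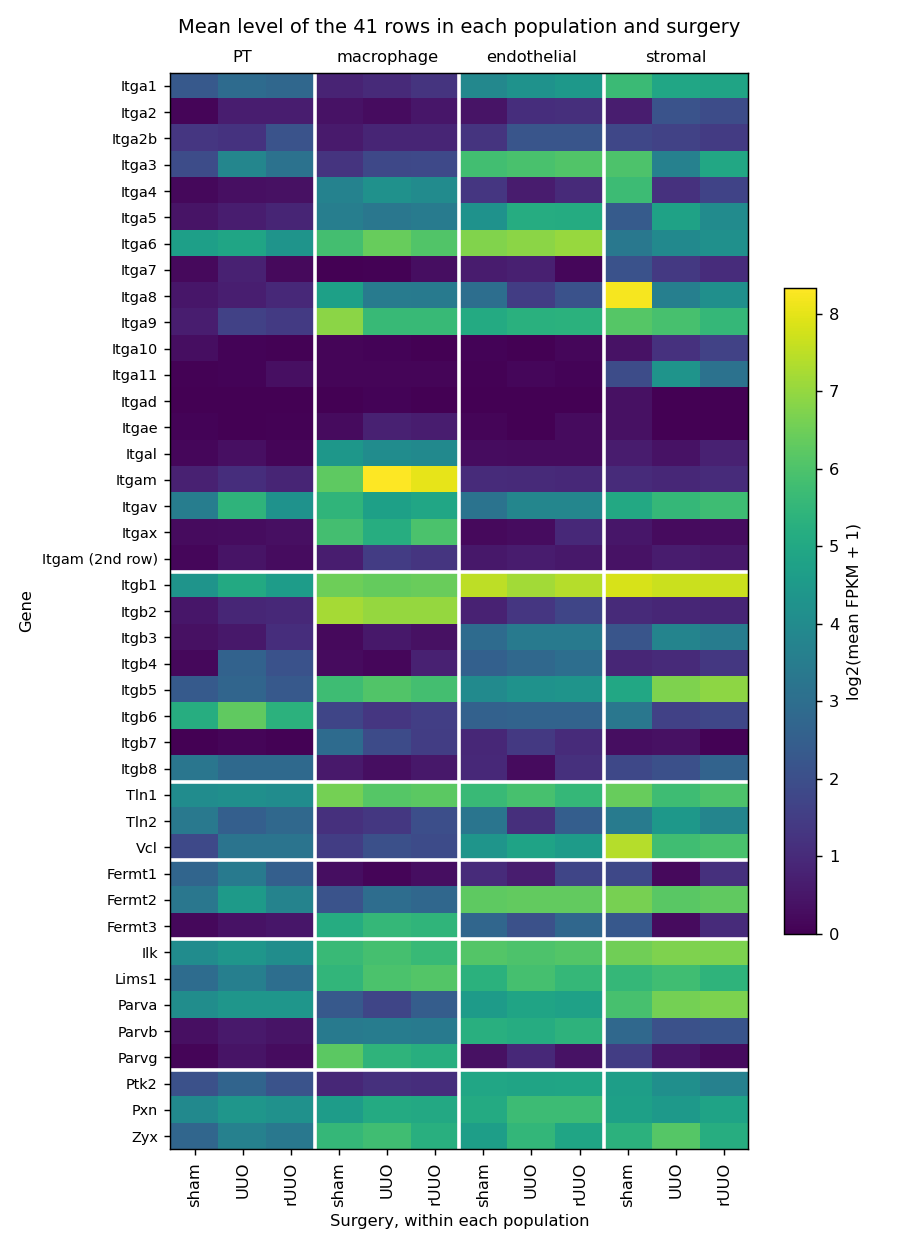
Mean level of the 41 rows, as log2(mean FPKM + 1), with populations and surgeries across and genes down, grouped by role by white lines. Itga8 is brightest in stromal sham samples (mean 293 FPKM) and Itgam in macrophage UUO samples (mean 320 FPKM).

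Against the mean of the other 3 populations in sham kidneys, 35 rows could be tested. Of these, 8 reached the filter only through the population where they were highest, namely Itgal, Itgam, Itgax, Itgb2, Itgb7 and Parvg through macrophages, Itga7 through stromal cells and Itgb4 through endothelial cells. For these 8 the filter favoured a higher level in that population and a lower one elsewhere, so counts that hold them are given as descriptions. In PT cells 4 members were higher, against 9.34% of all genes tested, and 29 were lower, against 67.4%, of which 8 were these genes. The 4 were Itgb6 by 2.76 ± 0.41 (log2, SE, adjusted p = 1.44e-05), Itgb8, another activator of latent TGF-β, by 2.18 ± 0.24 (adjusted p = 4.11e-07), Fermt1 by 1.76 ± 0.34 (adjusted p = 0.000199) and Tln2 by 0.82 ± 0.30 (adjusted p = 0.0194). The median difference of all genes in PT cells was -1.06, and -0.19 after quantile normalization, so that lower levels there are read against this shift. Under quantile normalization 5 members were higher and 21 lower, and Itga6, Itgav and Pxn no longer lay below the other populations. The difference of Tln2 lost the call as TPM (adjusted p = 0.115) and without PT sham replicate 1 (adjusted p = 0.0954). Its highest sham mean was in stromal cells (9.94 FPKM), where it was also called higher, a call likewise lost in a scaling. Tln2 had 8.0 to 11.25 FPKM in PT sham samples, 6.83 to 12.96 in stromal, 4.18 to 13.98 in endothelial and 0.67 to 1.96 in macrophage ones.

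In macrophages 17 members were higher, against 33.9% of all genes, of which 6 had entered through macrophages alone. Another 13 were lower, against 25.9%, of which Itga7 had entered through stromal cells alone and Itgb4 through endothelial cells alone. The largest differences in macrophages were Itgb2 by 6.46 on the log2 scale, Parvg by 5.78, Itgax by 5.53 and Itgam by 5.34. These are leukocyte genes, the F4/80 gate chose such cells, and all 4 are among the 6. In endothelial cells 15 were higher, against 29.2%, of which Itgb4 had entered through endothelial cells alone. Another 10 were lower, against 13.3%, of which 5 had entered through macrophages alone. The higher ones were led by Parvb at 3.06, Itga3 at 2.79 and Ptk2 at 2.41. Under quantile normalization the endothelial split was 11 higher and 12 lower. In stromal cells 18 were higher, against 35.3%, of which Itga7 had entered through stromal cells alone. Another 7 were lower, against 10.9%, of which 6 had entered through macrophages alone and the other was Itga6. The higher ones were led by Itga8 at 5.48, Vcl at 4.79 and Itga4 at 4.00. Itga6 differed by -2.45, at 8.99 ± 2.45 FPKM in stromal cells.

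Shares of the paralogs within each adaptor family were taken in sham samples. Among parvins in sham samples, Parva held 97.9 ± 0.3% of the family's FPKM in PT cells and 87.9 ± 3.6% in stromal cells, Parvg held 84.4 ± 2.1% in macrophages, and Parvb held 60.8 ± 9.4% in endothelial cells. Among kindlins, Fermt3, the kindlin of blood cells, held 90.5 ± 4.9% in macrophages, while Fermt2 held 91.7 ± 4.3% in endothelial and 93.9 ± 1.7% in stromal cells. PT cells divided theirs between Fermt2 at 59.1 ± 9.1% and Fermt1, the epithelial kindlin, at 39.7 ± 7.8%. Tln1 was the larger talin in all 4 populations, and Tln2 held 39.1 ± 5.5% of the talins in PT cells, 14.1 ± 4.4% in endothelial cells and 10.7 ± 1.8% in stromal cells, and Tln1 held 98.7 ± 0.4% in macrophages. These shares were taken within each sample and were given no test.

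Shares of the β subunits were taken in the same manner. Itgb1 held 84.4 ± 3.5% of the summed β FPKM in endothelial sham samples and 82.3 ± 1.7% in stromal ones, Itgb6 held 51.0 ± 8.0% in PT cells, and Itgb2 held 49.2 ± 3.8% in macrophages. After UUO the Itgb1 share in stromal cells was 62.3 ± 4.7% and after reversal it was 58.6 ± 4.0%, while the share of Itgb5 was 11.4 ± 2.0% in sham, 31.6 ± 5.9% in UUO and 35.3 ± 2.5% in rUUO samples. The stromal sham samples, 80.3% to 84.3% Itgb1, did not overlap UUO samples, 56.7% to 67.1%, or rUUO samples, 53.2% to 61.8%. The Itgb1 level itself was 224 ± 21.2 FPKM in sham and 201 ± 39.7 in UUO, with overlapping samples and no call. In PT cells Itgb6 held 60.9 ± 2.9% in UUO, while Itgb8 had 12.9 ± 0.9% in sham, 4.7 ± 1.9% in UUO and 7.9 ± 0.3% in rUUO samples. The level of Itgb8 was 8.68 ± 0.91 FPKM in sham and 6.21 ± 3.20 in UUO, with overlapping samples and no call.

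**Figure D2:**
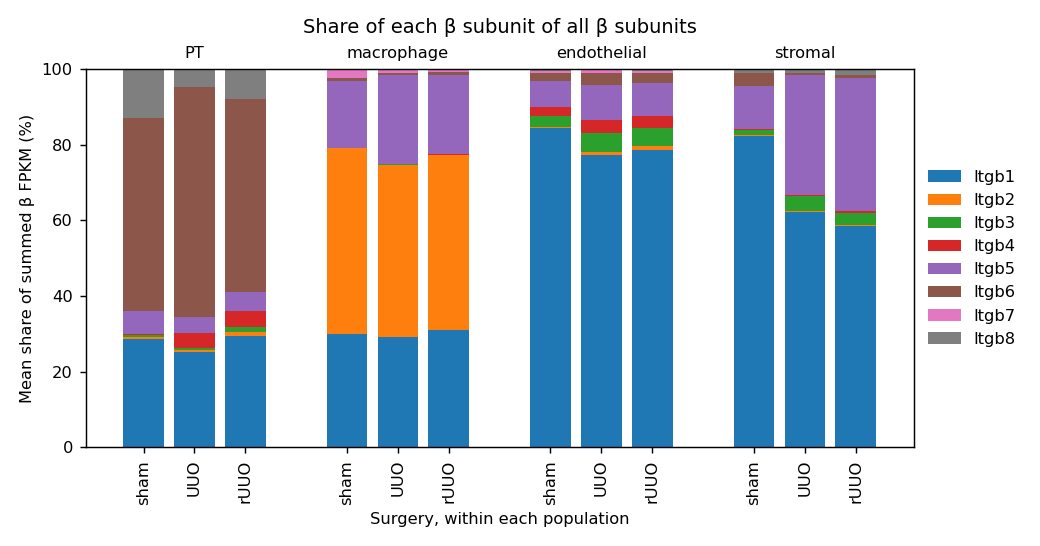
Mean share of each β subunit of the summed FPKM of all β subunits, in percent, for each surgery within each population. Itgb6 is the largest part in PT cells (51.0% in sham), Itgb2 in macrophages (49.2%), and Itgb1 in endothelial and stromal cells, with a larger Itgb5 part in stromal UUO (31.6%) and rUUO (35.3%) samples.

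Stromal cells had the largest number of members that changed. After UUO 7 of 32 members rose, against 13.4% of all genes tested, and 9 fell, against 13.0%. Of the 13 α rows tested, 3 rose and 4 fell. Of the 6 β rows, 2 rose and 1 fell. The median change of the 32 members was -0.13, and that of all genes was -0.07. Under quantile normalization 5 rose and 11 fell, and without mitochondrial genes 5 rose and 10 fell.

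Itga8 was the largest fall. Its sham samples had 310, 324, 290 and 249 FPKM, its UUO samples 2.86, 9.14, 23.8 and 8.78, and its rUUO samples 11.5, 21.5, 15.3 and 18.4. All UUO and rUUO samples lay far below all sham samples. The change was -4.89 ± 0.39 (log2, SE, adjusted p = 4.37e-07) for UUO against sham and -4.08 ± 0.39 (adjusted p = 3.99e-06) for rUUO against sham. Itga4, the α4 subunit that binds VCAM-1 and fibronectin, had 53.8, 56.2, 54.0 and 41.1 FPKM in sham, 1.45, 1.51, 0.96 and 1.24 in UUO, and 4.21, 1.81, 1.64 and 1.02 in rUUO samples. The UUO and rUUO ranges overlapped each other and lay far below sham. Itga4 fell by 4.51 ± 0.30 after UUO (adjusted p = 6.65e-08) and differed by -4.13 ± 0.30 between rUUO and sham (adjusted p = 2.67e-07).

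Itga3, a laminin receptor subunit, had 62.6, 75.6, 67.7 and 48.7 FPKM in sham, 9.35, 16.2, 17.0 and 4.57 in UUO, and 27.3, 24.2, 39.3 and 33.2 in rUUO samples. The 3 groups did not overlap, and the rUUO samples lay between the others. It fell by 2.47 ± 0.32 after UUO (adjusted p = 3.21e-05) and rose by 1.45 ± 0.32 from UUO to rUUO (adjusted p = 0.021). Vcl, which strengthens adhesions under load, had 180, 201, 188 and 95.6 FPKM in sham, 44.2, 58.2, 69.1 and 44.5 in UUO, and 57.2, 71.99, 51.4 and 60.2 in rUUO samples. The sham sample with 95.6 FPKM stood apart from its group but above every other sample. Vcl fell by 1.57 ± 0.23 after UUO (adjusted p = 0.000121) and differed by -1.40 ± 0.23 between rUUO and sham (adjusted p = 0.000524).

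Itgb6 fell in stromal cells by 2.02 ± 0.45 (adjusted p = 0.00335), from 8.47, 9.25, 8.45 and 9.20 FPKM in sham to 0.14, 3.23, 4.49 and 0.31 in UUO. Fermt3 (-1.98 ± 0.40, adjusted p = 0.00159) and Fermt1 (-1.49 ± 0.39, adjusted p = 0.0103) were below 6 FPKM in every sham sample. Both reached the filter only through their sham samples, which favoured a fall, and the count of falls holds both. Itga1, a collagen receptor subunit (-0.79 ± 0.22, adjusted p = 0.0159), and Tln1 (-0.60 ± 0.20, adjusted p = 0.035) also fell, with overlapping groups. Both lost the call as TPM (adjusted p = 0.0518 and 0.11). Itga1 lost it without sham replicate 2 (adjusted p = 0.0585), and Tln1 without any one of sham replicates 1 to 3 and UUO replicates 1 to 3 (adjusted p up to 0.123).

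Markers of other cell types moved with these falls. All 7 markers of other tubule segments fell in the stromal sort after UUO, with a sum of 424 to 663 FPKM in sham samples, 30.8 to 66.4 in UUO samples and 57.8 to 105 after reversal. All 3 podocyte markers fell, with a sum of 59.2 to 110 FPKM in sham samples, 12.9 to 22.9 in UUO samples and 33.2 to 60.9 after reversal. Of 6 PT markers tested 5 fell, with a sum of 37.7 to 63.7 FPKM in sham samples, 6.53 to 17.3 in UUO samples and 8.92 to 22.2 after reversal, and of 6 endothelial markers 3 fell, with a sum of 78.8 to 95.9, 32.5 to 59.7 and 58.9 to 112 FPKM. Of 6 macrophage markers tested only Csf1r and Mrc1 fell, and the median change was -0.19. Mrc1 alone had 51.7 ± 11.8 FPKM in sham and 1.51 ± 0.56 in UUO.

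Markers of the sorted cells moved in both directions. Of the 7 stromal markers 5 rose after UUO, and Pdgfrb, the gene of the sorting marker, changed by -0.88 ± 0.21 (adjusted p = 0.00502), from 212 ± 43.5 to 117 ± 38.9 FPKM. Cspg4, a pericyte marker, changed by -1.96 ± 0.26 (adjusted p = 3.93e-05). The summed level, 1092 to 2665 FPKM in sham samples, 6784 to 11946 in UUO samples and 5143 to 6776 after reversal, was made up mostly of Col1a1, Col3a1 and Dcn. The part of all these cells in the falls of Itgb6, Fermt1, Fermt3, Itga3, Itga8, Itga4 and Vcl was not tested.

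The highest sham mean of these genes in another sort was 35.1 FPKM for Itgb6 (PT) against 8.84 in stromal cells, 5.56 for Fermt1 (PT) against 2.46, and 34.8 for Fermt3 (macrophages) against 3.87. It was 54.6 FPKM for Itga3 (endothelial cells) against 63.7 in stromal cells, 25.9 for Itga8 (macrophages) against 293, 12.05 for Itga4 (macrophages) against 51.3, and 19.2 for Vcl (endothelial cells) against 166. Podocytes and other tubule segments were not sorted.

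Of the 7 members that rose in stromal cells, 5 were integrin subunits (Itga11, Itga5, Itgb3, Itgb5 and Itga2). Itga11, the collagen receptor subunit of fibroblasts, had 1.40, 4.76, 3.89 and 1.38 FPKM in sham, 13.2, 20.6, 21.8 and 20.5 in UUO, and 9.34, 7.81, 4.14 and 10.03 in rUUO samples. Its UUO samples lay above all others, and 1 rUUO sample lay within the sham range. The rise was 2.47 ± 0.35 after UUO (adjusted p = 8.57e-05). Itga5, the α subunit of the fibronectin receptor, had 3.63, 5.08, 5.25 and 3.12 FPKM in sham, 33.2, 23.3, 31.0 and 19.1 in UUO, and 16.7, 14.7, 17.6 and 11.4 in rUUO samples. No 2 groups overlapped. It rose by 2.38 ± 0.25 after UUO (adjusted p = 4.38e-06) and was higher by 1.62 ± 0.25 in rUUO than in sham (adjusted p = 0.000281).

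Itgb5, which pairs with αv, had 31.3, 36.0, 35.9 and 21.4 FPKM in sham, 70.0, 85.1, 161 and 102 in UUO, and 123, 114, 127 and 116 in rUUO samples. Every UUO and rUUO sample lay above every sham sample, with a rise of 1.67 ± 0.23 after UUO (adjusted p = 7.21e-05) and a difference of 1.94 ± 0.23 between rUUO and sham (adjusted p = 3.09e-05). Itgb3, the other main partner of αv, had 6.05, 4.12, 0.52 and 3.57 FPKM in sham, 13.3, 16.6, 12.6 and 7.54 in UUO, and 14.4, 8.04, 8.15 and 10.8 in rUUO samples. Its groups also did not overlap with sham, and it rose by 1.72 ± 0.41 (adjusted p = 0.00554). Itga2, a collagen receptor subunit, rose by 1.33 ± 0.40 (adjusted p = 0.0204) at low levels that reached the filter through UUO and rUUO samples, 0.32 to 0.77 FPKM in sham and 1.18 to 7.07 in UUO samples, and lost the call without sham replicate 1 (adjusted p = 0.0567) or UUO replicate 3 (adjusted p = 0.0621). Zyx (0.77 ± 0.23, adjusted p = 0.023) and Parva (0.68 ± 0.20, adjusted p = 0.0172) rose less, and both lost the call under quantile normalization (adjusted p = 0.0693 and 0.101). Parva lost it without sham replicate 4 (adjusted p = 0.0561), and Zyx without sham replicate 3 or 4 or UUO replicate 2 or 4 (adjusted p from 0.0527 to 0.0753).

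**Figure D3:**
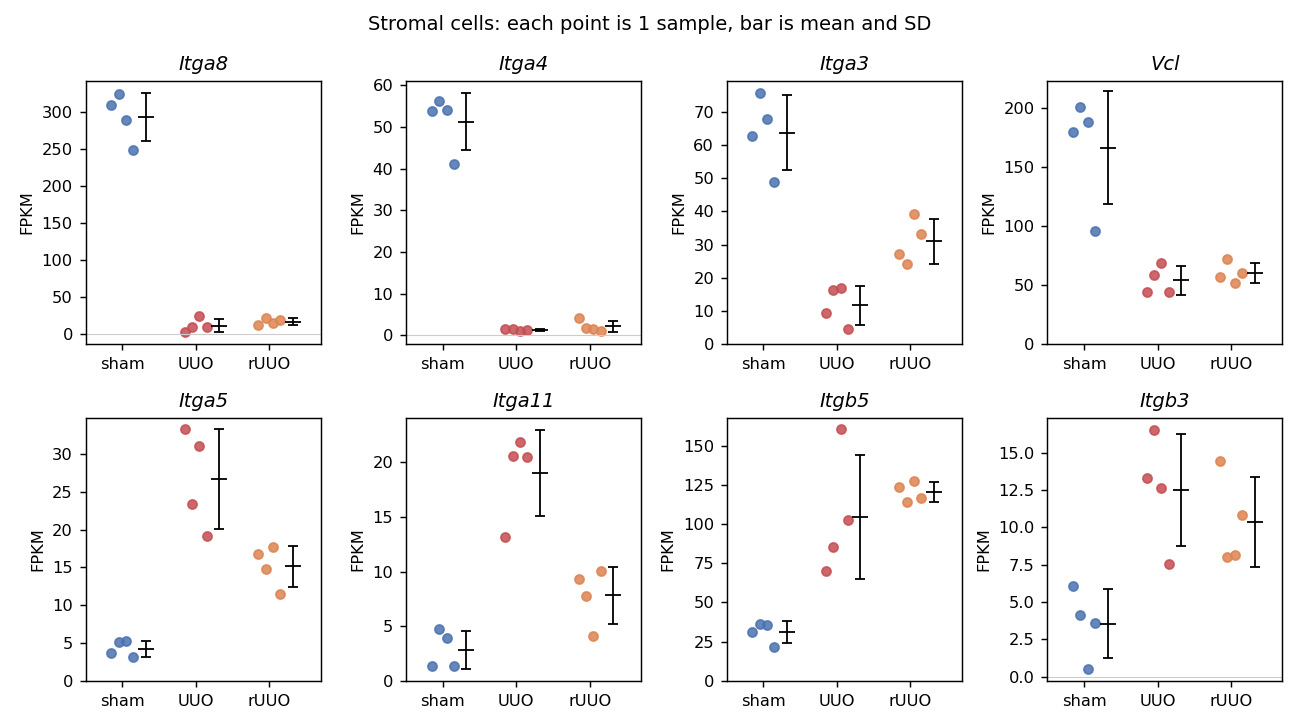
FPKM of 8 members in stromal cells by surgery, each point 1 sample, with the mean and SD beside it and a linear axis for each gene. Itga8 and Itga4 are near the bottom in all UUO and rUUO samples (Itga8 at most 23.8 FPKM against at least 249 in sham), while Itga5, Itga11, Itgb5 and Itgb3 are above sham in UUO.

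Between UUO and reversal, 1 stromal member rose, against 2.95% of all genes, and 1 fell, against 1.22%. Besides Itga3, Zyx fell by 0.91 ± 0.23 (adjusted p = 0.0412), from 60.3, 77.7, 45.0 and 94.5 FPKM in UUO to 35.3, 38.6, 31.0 and 36.3 in rUUO samples. The rUUO samples all lay below the UUO samples. Itga3 lost the call without UUO replicate 1 (adjusted p = 0.0579) or rUUO replicates 4 (0.0624) or 6 (0.0563), and Zyx lost it without any of 10 of the 12 stromal samples, every one but sham replicate 3 and UUO replicate 3 (adjusted p from 0.0508 to 0.104). Neither was called without UUO replicate 1 or rUUO replicates 4 or 6.

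Against the same sham samples, 7 members were higher in rUUO, against 11.6% of all genes, and 7 were lower, against 5.57%. The higher ones were Itgb5, Itga5, Itgb3 (1.48 ± 0.41), Itga2 (1.26 ± 0.40), Itga11 (1.25 ± 0.35), Parva (0.79 ± 0.20) and Itgav (0.73 ± 0.21). The lower ones were Itga4, Itga8, Itgb6 (-1.53 ± 0.45), Vcl, Fermt3 (-1.35 ± 0.40), Itga3 (-1.02 ± 0.32) and Itga1 (-0.82 ± 0.22). Fermt3 reached the filter only through its sham samples, and Itga2 only through UUO and rUUO samples, so these counts hold genes favoured by the filter. The 2 comparisons share their sham samples and are not independent. Under TPM, quantile normalization and without mitochondrial genes, 2 of the higher ones (Itga5, Itgb5) and 5 of the lower ones (Itga4, Itga8, Vcl, Fermt3, Itga1) kept the call in all 3, and the split was 2 higher and 8 lower without mitochondrial genes and 5 and 10 under quantile normalization. Itga4, Itga5, Itga8, Itgb5, Parva and Vcl kept the call whichever sample was left out. The others each lost it without at least 1 sample, Itgb3 only without rUUO replicate 1 (adjusted p = 0.0645), the rest with adjusted p up to 0.112. The count of 14 was 9 without any one of sham replicates 1 to 4 or rUUO replicate 1, and 8 without rUUO replicate 2.

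Ligand genes were counted beside their receptors. Of 26 ligand genes tested in stromal cells after UUO, 19 rose and 4 fell, with a median of 1.52, against 13.4% and 13.0% of all genes and a median of -0.07. Postn (4.95 ± 0.33, adjusted p = 7.02e-08) and Fn1 (4.42 ± 0.32, adjusted p = 1.45e-07) rose most, Fn1 from 57.0 ± 36.2 to 1069 ± 137 FPKM. Icam2 (-3.90 ± 0.37, adjusted p = 1.78e-06) and Npnt, the nephronectin gene whose product binds α8β1 (-2.7 ± 0.33, adjusted p = 1.92e-05), fell most, Npnt from 51.5 ± 15.7 to 7.44 ± 3.47 FPKM, with 24.9 ± 5.29 FPKM in rUUO samples. Icam2 had 156 ± 17.4 FPKM in endothelial sham cells and 27.5 ± 8.11 in stromal ones, and the endothelial, podocyte and tubule markers above fell in the same sort. Their part in the falls of Icam2 and Npnt was not tested. From UUO to rUUO, 4 ligands rose, against 2.95% of all genes, and 5 fell, against 1.22%. Npnt was among the former, by 1.71 ± 0.33 (adjusted p = 0.0106), and Postn among the latter, by -2.12 ± 0.33 (adjusted p = 0.0029). Of 33 further adaptors and signalling genes, 6 rose and 7 fell after UUO (the same 13.4% and 13.0% of all genes apply), with Fhl2 (-2.09 ± 0.21, adjusted p = 3.31e-06) the largest fall and Ptk2b (1.00 ± 0.34, adjusted p = 0.0425) the largest rise, and of 18 genes of integrin activity and trafficking 3 rose, Apbb1ip most (2.45 ± 0.31, adjusted p = 2.96e-05), and 2 fell. Apbb1ip encodes RIAM, which brings talin to integrins.

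In PT cells the members that changed were mostly higher after UUO, and so was the median of all genes. After UUO 8 of 22 members rose, against 27.9% of all genes, and 1 fell, against 4.91%. The median of all genes was 0.51 and that of the members 0.61, and after quantile normalization these were -0.02 and 0.04. The split was then 4 higher and 2 lower.

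Itgav, the αv subunit, had 11.9, 8.94 and 10.8 FPKM in sham, 34.2, 39.5, 43.1 and 51.6 in UUO, and 15.0, 17.5 and 21.9 in rUUO samples. The 3 groups did not overlap, with rUUO between the others. Itgav rose by 1.89 ± 0.22 after UUO (adjusted p = 2.42e-05; 1.52 after quantile normalization) and fell by 1.17 ± 0.22 from UUO to rUUO (adjusted p = 0.013). Itgb6, its epithelial partner, had 28.1, 48.7 and 28.4 FPKM in sham, 74.1, 67.6, 85.3 and 85.1 in UUO, and 42.4, 39.5 and 37.3 in rUUO samples. The UUO samples lay above all others, and the rUUO samples lay within the sham range. It rose by 1.17 ± 0.22 (adjusted p = 0.00106; 0.93 after quantile normalization) and fell by 0.95 ± 0.22 after reversal (adjusted p = 0.0287).

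Itgb4, the β subunit of the hemidesmosome integrin α6β4, was almost absent from sham PT cells, at 0.25, 0.05 and 0.08 FPKM, and had 4.63, 4.53, 6.70 and 4.57 in UUO and 2.23, 2.06 and 5.58 in rUUO samples. Every UUO and rUUO sample lay above every sham sample. Itgb4 reached the filter only through its UUO and rUUO samples. Itgb4 rose by 2.43 ± 0.32 (adjusted p = 7.6e-05; 2.04 after quantile normalization) and was higher by 1.84 ± 0.35 in rUUO than in sham (adjusted p = 0.00391). Itga3 had 2.23, 5.08 and 1.10 FPKM in sham, 11.8, 9.31, 19.3 and 11.9 in UUO and 7.48, 5.25 and 10.99 in rUUO samples, a rise of 1.98 ± 0.37 (adjusted p = 0.00113; 1.44 after quantile normalization). Its direction was opposite to that in stromal cells. Vcl had 3.08, 2.7 and 2.06 FPKM in sham, 7.54, 7.45, 10.3 and 7.65 in UUO, and 5.22, 9.03 and 10.3 in rUUO samples, again with no overlap with sham. Vcl rose by 1.35 ± 0.27 after UUO (adjusted p = 0.00211), with an adjusted p of 0.0509 after quantile normalization, and was 1.31 ± 0.29 higher in rUUO than in sham (adjusted p = 0.0131).

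Fermt2 (1.30 ± 0.34, adjusted p = 0.0099), Zyx (0.91 ± 0.32, adjusted p = 0.0386) and Itgb1 (0.74 ± 0.23, adjusted p = 0.024) also rose, with no overlap between groups. After quantile normalization their changes were 0.83, 0.38 and 0.39, and none passed (adjusted p = 0.121, 0.377 and 0.209). Fermt2 lost the call without sham replicate 2 (adjusted p = 0.0511), Itgb1 without sham replicates 2 or 4 or UUO replicates 3 or 4 (0.0543 to 0.0704), and Zyx without sham replicates 2 or 4 or UUO replicates 1, 3 or 4 (0.0541 to 0.152). Without sham replicate 2 the count of changed members was 5 in place of 9.

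Tln2 was the one member that fell in PT cells. Its sham samples had 11.2, 8.91 and 8.0 FPKM, its UUO samples 3.67, 4.78, 6.23 and 4.29, and its rUUO samples 8.03, 6.31 and 3.82. The UUO samples lay below all sham samples, and the rUUO samples spread over both ranges. The change was -0.86 ± 0.28 (adjusted p = 0.0307), and -1.39 after quantile normalization (adjusted p = 0.00214). It lost the call without sham replicates 1, 2 or 4 or UUO replicates 1 or 4 (adjusted p from 0.0541 to 0.117). Tln1 had 15.4 ± 6.65 FPKM in sham and 16.6 ± 3.19 in UUO, so that Tln2 held 39.1 ± 5.5% of the talins in sham and 22.4 ± 4.1% in UUO samples. The row of the microRNA gene within Tln2, Mir190a, was listed at 0 in all 44 samples, so nothing is said of its level.

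**Figure D4:**
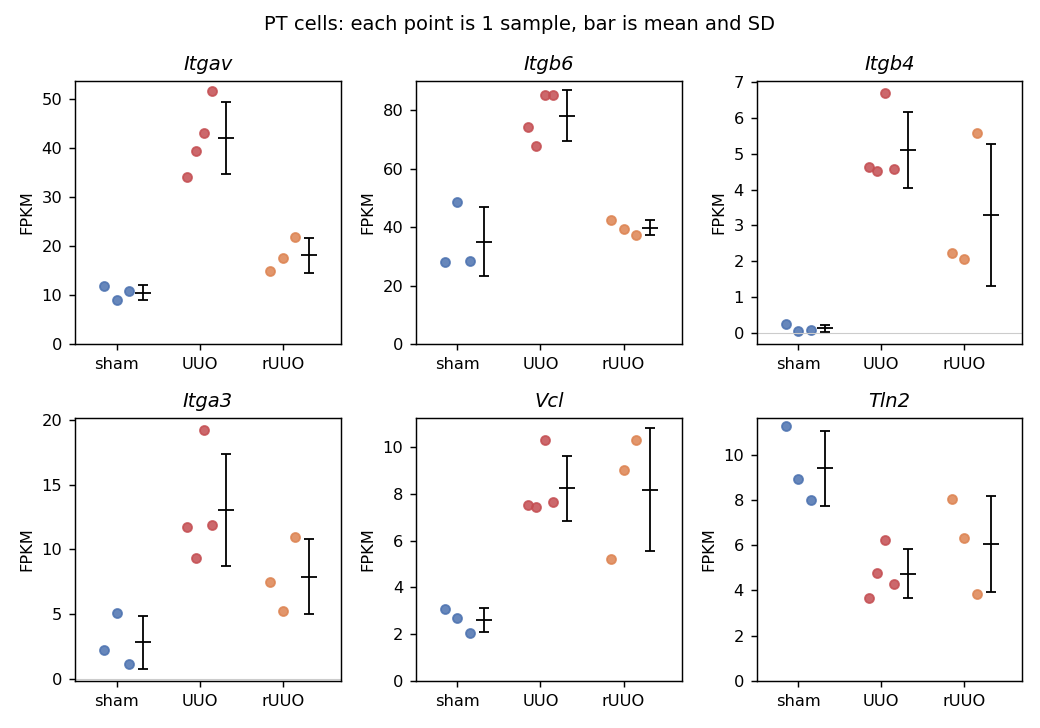
FPKM of 6 members in PT cells by surgery, each point 1 sample, with the mean and SD beside it and a linear axis for each gene. Itgav, Itgb6, Itgb4, Itga3 and Vcl are higher in every UUO sample than in any sham sample (Itgav at least 34.2 against at most 11.9 FPKM), and Tln2 is lower.

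After reversal, 2 PT members fell from their UUO level, Itgav and Itgb6, against 3.15% of all genes, and 2 were higher than in sham, Itgb4 and Vcl, against 6.52%. The calls on reversal depended on single samples. Itgb6 lost its call without any one of UUO replicates 1, 3 and 4 and rUUO replicates 2, 3 and 4 (adjusted p from 0.0608 to 0.0893), Itgav without rUUO replicate 2 (0.0583) or 3 (0.0557), and Vcl without sham replicate 4 (0.0599) or rUUO replicate 4 (0.0578). Neither rUUO replicate 2 nor 3 could be left out with any fall still called, and without UUO replicates 1, 3 or 4 or rUUO replicate 4 the count was 1.

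Markers of other cells moved in the PT sort as well. All 7 PT markers fell after UUO, and they summed to 2400 to 3231 FPKM in sham samples, 656 to 908 in UUO samples and 1318 to 1885 after reversal. Of the 7 markers of other tubule segments 3 rose after UUO, and they summed to 33.8 to 50.7 FPKM in sham samples, 219 to 282 in UUO samples and 84.0 to 191 after reversal. Their part in the rises of Itgav, Itgb6, Itgb4, Itga3 and Vcl was not tested. Beside the 27.9% of all genes that rose in PT cells and the median of 0.51 over all genes, which quantile normalization removes, 12 of 20 ligand genes rose after UUO and none fell, led by Spp1, the gene of osteopontin (4.16 ± 0.17, adjusted p = 1.56e-09), and Vcam1 (3.76 ± 0.37, adjusted p = 4.23e-06). Spp1 had 174 ± 24.3 FPKM in sham, 3124 ± 402 in UUO and 695 ± 120 in rUUO samples. Of 33 adaptors 16 rose and none fell, with Csrp1 (3.22 ± 0.24, adjusted p = 2.4e-07) and Flna (2.37 ± 0.32, adjusted p = 7.8e-05) first, and of 17 activity and trafficking genes 9 rose, Cd9 (2.97 ± 0.27, adjusted p = 1.92e-06) and Rab25 (2.87 ± 0.35, adjusted p = 3.55e-05) most, and 1, Slc3a2 (-1.30 ± 0.24, adjusted p = 0.00101), fell.

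In macrophages 1 of 30 members rose after UUO, against 2.86% of all genes, and 3 fell, against 2.13%. Itgam, the αM subunit (CD11b) of complement receptor 3, had 78.6, 72.7, 91.7 and 62.0 FPKM in sham, 345, 445, 235 and 256 in UUO, and 304, 262 and 217 in rUUO samples. Every UUO and rUUO sample lay above every sham sample. Itgam rose by 2.02 ± 0.21 after UUO (adjusted p = 9.52e-05) and was 1.76 ± 0.23 higher in rUUO than in sham (adjusted p = 0.000488). The overlapping second Itgam model had 0.47 to 0.67 FPKM in sham and 1.08 to 2.87 in UUO samples. Itgb2, the partner of αM, was 148 ± 20.5 FPKM in sham, 129 ± 20.7 in UUO and 127 ± 14.5 in rUUO samples and did not pass.

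Itga9, a subunit that binds tenascin-C and osteopontin, fell by 1.26 ± 0.18 (adjusted p = 0.00126), from 110, 119, 136 and 96.8 FPKM in sham to 36.3, 50.7, 49.3 and 55.3 in UUO, with 50.6, 53.0 and 40.5 in rUUO samples. Its UUO and rUUO samples were all below sham. Itga8 fell by 1.30 ± 0.27 (adjusted p = 0.0158), from 24.8, 25.2, 34.9 and 18.7 FPKM to 6.04, 11.1, 13.9 and 9.29. Parvg, the parvin of blood cells, fell by 0.84 ± 0.21 (adjusted p = 0.0339), from 74.4, 74.3, 71.7 and 74.2 FPKM to 37.3, 27.0, 55.1 and 48.8. In both genes the sham and UUO samples did not overlap. Parvg lost the call without any of sham replicates 1 to 4, UUO replicate 1 or rUUO replicate 6 (adjusted p from 0.0507 to 0.0922), and Itga8 without sham replicate 2 (0.051) or 3 (0.052). The count was 2 without sham replicate 2 or 3.

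After reversal no macrophage member differed from UUO by limma, where 0.0% of all genes did. Before adjustment 2 of 30 had a p under 0.05, a threshold at which all genes were not counted. Against sham, 1 was higher in rUUO (1.89% of all genes) and 3 were lower (1.55%), namely Itga9 (-1.25 ± 0.20, adjusted p = 0.00262), Itga8 (-1.31 ± 0.30, adjusted p = 0.0255) and Parvg (-1.02 ± 0.23, adjusted p = 0.0235). The count was 2 without sham replicate 1 or 2 or any one of rUUO replicates 1, 4 and 6, and Itga8 and Parvg had adjusted p up to 0.12 and 0.111. Beside these values, 5 neutrophil and monocyte markers summed to 106 to 140 FPKM in sham samples, 284 to 485 in UUO samples and 219 to 271 after reversal, and 7 stromal markers to 12.7 to 53.7, 42.3 to 89.5 and 34.8 to 65.3. The 7 macrophage markers summed to 6351 to 8111 FPKM in sham samples, 4066 to 6968 in UUO samples and 5419 to 6875 after reversal. Of 5 neutrophil and monocyte markers 3 rose after UUO. Of 6 PT markers tested 4 fell after UUO and 5 were lower in rUUO than in sham, with a sum of 131 to 182 FPKM in sham samples, 35.1 to 58.5 in UUO samples and 38.9 to 47.9 after reversal. Of 7 markers of other tubule segments 2 fell, with a sum of 66.8 to 119, 19.0 to 46.6 and 38.6 to 75.7 FPKM. Of 3 T and B cell markers tested 2 rose, with a sum of 1.94 to 2.20, 3.75 to 47.9 and 6.81 to 28.2 FPKM. Their part in the changes of Itgam, Itga9, Itga8 and Parvg was not tested. Of 21 ligand genes 2 rose after UUO, Spp1 (2.31 ± 0.27, adjusted p = 0.000217) and Icam1 (0.79 ± 0.20, adjusted p = 0.0424). Against 2.86% of all genes higher and 2.13% lower, of 33 adaptors 1 rose and 1 fell, and of 16 activity and trafficking genes 1 rose and 1, Cd81 (-1.13 ± 0.16, adjusted p = 0.00119), fell.

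**Figure D5:**
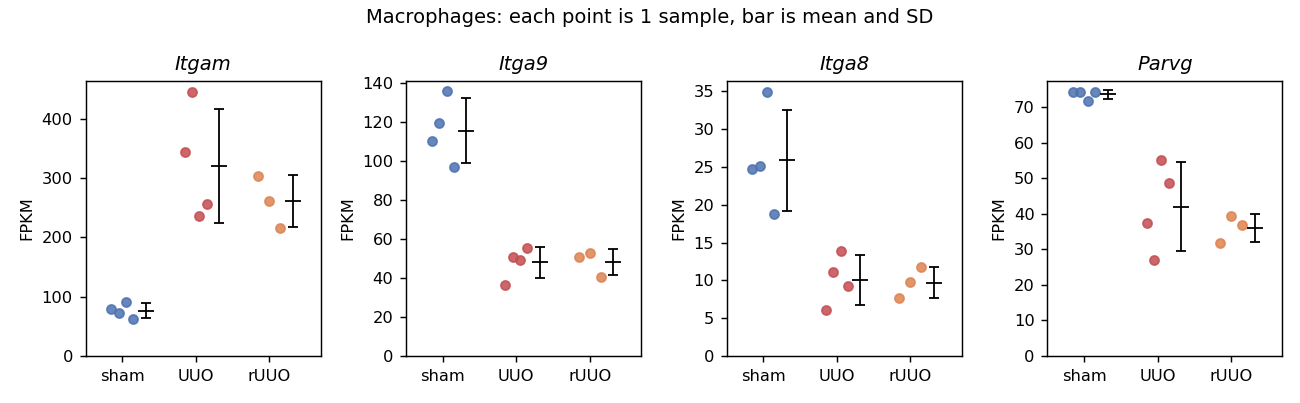
FPKM of the 4 members that changed in macrophages by surgery, each point 1 sample, with the mean and SD beside it and a linear axis for each gene. Itgam is higher in all UUO and rUUO samples (at least 217 FPKM against at most 91.7 in sham), and Itga9, Itga8 and Parvg are lower.

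In endothelial cells no member passed after UUO, where 1.98% of all genes did by limma. Before adjustment 8 of 29 had a p under 0.05, with no share of all genes at that threshold to set beside it. Tln2 came closest, with 4.18, 13.98, 9.78 and 5.64 FPKM in sham, 0.83, 1.73 and 1.00 in UUO, and 7.98, 1.47, 1.96 and 6.83 in rUUO samples. Its sham and UUO samples did not overlap. The change was -2.0 ± 0.50 (adjusted p = 0.0509), and Tln2 passed under quantile normalization, without mitochondrial genes and with a pseudocount of 0.1. The count was 1 without rUUO replicate 1 or 2. Itga5 had 18.5, 24.3, 16.6 and 12.4 FPKM in sham, 38.4, 38.4 and 27.0 in UUO, and 27.1, 31.8, 44.3 and 32.5 in rUUO samples, with a change of 0.93 ± 0.26 (adjusted p = 0.0857). Its UUO and rUUO samples all lay above sham.

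From UUO to rUUO no endothelial member passed, where 0.0597% of all genes did, and 2 of 29 had an unadjusted p under 0.05. Between rUUO and sham none passed either, where 1.77% of all genes did, and 6 of 29 had an unadjusted p under 0.05. Neither unadjusted count has a share of all genes at that threshold beside it. Without sham replicate 2, 1 member passed between rUUO and sham. The markers of other tubule segments in the endothelial sort summed to 188 to 954 FPKM in sham and 79.0 to 265 in UUO samples, with 2 of 7 lower. The 7 PT markers summed to 59.6 to 161 FPKM in sham samples, 17.8 to 44.6 in UUO samples and 20.8 to 71.0 after reversal, with 1 lower after UUO, and the 3 podocyte markers to 28.4 to 49.3, 4.98 to 12.6 and 26.5 to 58.1 FPKM, also with 1 lower. PT sham cells had Tln2 at 9.39 FPKM on average. The part of these cells in the Tln2 values was not tested. Of 23 ligand genes 5 rose after UUO and none fell, against 1.28% and 0.702% of all genes, with Spp1 (2.15 ± 0.35, adjusted p = 0.00362) and Col4a2 (1.47 ± 0.20, adjusted p = 0.000914) first. Of 32 adaptors 1 rose, Cav1 (0.82 ± 0.19, adjusted p = 0.0372; 0.0732 to 0.0899 as TPM, after quantile normalization and without mitochondrial genes), and of 18 activity and trafficking genes none passed.

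A single fit of all 12 groups tested whether the UUO change of a member differed between populations. It did for 20 of 36 members, against 33.5% of all genes. Of the 20, Itga11 and Itga2 reached the filter only through stromal cells, Itgam and Itgb7 only through macrophages and Fermt1 only through PT cells. For these genes the test largely restates the change in that population. The 5 smallest adjusted p-values were those of Itga4 (1.4e-13), Itga8 (5.87e-09), Vcl (7.01e-08), Itga5 (8.91e-08) and Itga11 (2.17e-07). For Vcl the PT change exceeded the stromal one by 2.93 ± 0.35 (adjusted p = 1.85e-08), with a rise in one population and a fall in the other, and for Itga3 by 4.45 ± 0.57 (adjusted p = 1.01e-07). For Itga8 the macrophage change exceeded the stromal one by 3.59 ± 0.51 (adjusted p = 1.73e-06), although both fell. For Itgav the PT change exceeded those of macrophages by 2.60 ± 0.34 (adjusted p = 3.7e-07), of endothelial cells by 1.19 ± 0.35 (adjusted p = 0.0204) and of stromal cells by 1.37 ± 0.34 (adjusted p = 0.00192).

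The change from UUO to rUUO differed between populations for 2 of 36 members, against 5.57% of all genes, namely Itgav (adjusted p = 0.0218) and Itga11 (adjusted p = 0.028). Itga11 reached the filter only through stromal cells. The Itgav change in PT cells minus that in stromal cells was -1.37 ± 0.34 (adjusted p = 0.00962), and the Itga11 change in PT cells, where its level was at most 0.27 FPKM in the group means, exceeded the stromal one by 1.44 ± 0.36 (adjusted p = 0.0108). This count was 1 without PT UUO replicate 4, PT rUUO replicate 3, stromal UUO replicates 2 or 4 or stromal rUUO replicate 4, and 0 without PT rUUO replicate 2.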

How the data were processed

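RNA-seq was read from 44 samples of 4 sorted mouse kidney populations. The authors deposited 1 table of FPKM values, made from paired-end reads of amplified RNA. The submitters' processing notes name FastQC, Bowtie2, RSEM, DESeq2 and mm10, and versions are not given in the sources used here. Of the 46 value columns 2 were not used, because both carry the same name (CD31+ UUO 3) and neither can be assigned to its sample. No column is named for the PT sham sample numbered 3 in the labels, which was not analysed here and leaves 3 PT sham samples. Groups came from the sample labels, and the PT library with 2 surgery names in its title followed its treatment label. Samples of a group were taken as replicates, and p-values set the difference between groups against the spread between samples, pooled over the fitted groups.

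The values were read as log2(FPKM + 1). Genes whose average over the fitted samples reached 1 FPKM were tested with limma 3.58.1 in R 4.3.3 (lmFit, eBayes with an intensity trend), with Benjamini-Hochberg adjustment over all of them and a threshold of 0.05. Each population was fitted on its own for the surgery comparisons, the sham samples together for the comparison of populations, and all 12 groups for the interaction (F test). The fits were tested on simulated data with known changes. Counts of members are set beside the percentage of all genes called in the same direction. Shares of a family were taken within each sample. Alternatives were a pseudocount of 0.1, no filter, TPM, quantile normalization, scaling without the 37 mitochondrial genes, no intensity trend, the replicate number as a block, 1 fit of all populations, a fold above 1.5, and leaving out each of the 44 samples. Python 3.11.15 with pandas 2.3.3 and matplotlib 3.10.9 wrote tables and figures.

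The members and lists were chosen with earlier results of these data known. Values per sample are given for members past the threshold whose groups do not overlap (at most 5 rises and 5 falls a comparison), for the 6 highest members of each population in sham, and for some named for a stated reason. Values of Itga1, Tln1, Fermt1, Fermt3 and the endothelial genes Tln2 and Itga5 fall outside that rule and were chosen after their values were seen. Up to 2 rises and 2 falls are named from each further list. Promoter and microRNA sequences are RefSeq's (GRCm38.p6), and 28 of 40 member symbols matched. Absolute depth is unknown, so no counting interval is given.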

Additional observations from a re-analysis of the deposited data

Results flagged for a closer look

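Of 236 groups of 4 samples tested for a sample that stands apart, 11 had a gap to the nearest sample above Dixon's critical value. The gap was taken as a share of the group's whole range, on log2(FPKM + 1), while the values listed are FPKM. Chance gives about 1 in 20. Of these, 3 were PT UUO replicate 3, with Fermt1 at 17.3 FPKM against 6.93 to 7.45 in the other 3 samples (gap 0.924), Itgb4 at 6.70 against 4.53 to 4.63 (gap 0.946) and Vcl at 10.3 against 7.45 to 7.65 (gap 0.92). In macrophages they were Itgal in sham replicate 1, 14.6 FPKM against 21.4 to 22.6 (gap 0.873), Parvg in sham replicate 3, 71.7 against 74.2 to 74.4 (gap 0.938), and Tln2 in UUO replicate 1, 3.63 against 0.85 to 0.89 (gap 0.977). In endothelial rUUO samples Fermt3 stood apart in replicate 1 with 7.99 FPKM against 4.82 to 5.24 (gap 0.84), and Itga4 in replicate 4 with 2.17 against 0.53 to 0.69 (gap 0.864). In stromal sham replicate 4, Itga4 had 41.1 FPKM against 53.8 to 56.2 (gap 0.857) and Vcl 95.6 against 180 to 201 (gap 0.851). Itga11 in stromal UUO replicate 1 had 13.2 FPKM against 20.5 to 21.8 (gap 0.871).

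The change from sham to UUO differed between populations for 20 members, by the interaction test of limma adjusted over all genes. These include Itga11, Itga2, Itgam, Itgb7 and Fermt1, each of which reached the filter only through the population where it is high. The adjusted p was 1.4e-13 for Itga4, 5.87e-09 for Itga8, 7.01e-08 for Vcl, 8.91e-08 for Itga5 and 2.17e-07 for Itga11. It was 6.69e-07 for Itga3, 1.55e-06 for Itgav, 3.08e-06 for Itgam, 4.96e-05 for Fermt3 and 0.000103 for Itga9. It was 0.000247 for Itgb4, 0.00136 for Itgb6, 0.00218 for Itgb1, 0.00368 for Tln2 and 0.00548 for Itgb5. It was 0.0102 for Fermt1, 0.0126 for Pxn, 0.0218 for Itga2, 0.0233 for Itga1 and 0.0362 for Itgb7. The change from UUO to rUUO differed for Itgav (adjusted p = 0.0218) and Itga11 (adjusted p = 0.028).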

How the results depend on the processing

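The number of members called changed with the processing in some comparisons, and the cause was not tested. In PT cells the 2 calls between rUUO and UUO were 1 without a filter, without an intensity trend and in 1 fit of all populations. In macrophages the 4 calls between rUUO and sham were 2 without a filter. In endothelial cells the 0 calls between UUO and sham were 1 with a pseudocount of 0.1, with quantile normalization and without mitochondrial genes, and 3 in 1 fit of all populations, and the 0 calls between rUUO and sham were 2 in that fit. In stromal cells the 2 calls between rUUO and UUO were 0 without a filter, 1 without an intensity trend and 4 in 1 fit of all populations, and the 14 between rUUO and sham were 8 without a filter. The 2 members whose change from UUO to rUUO differed between populations were 1 with a pseudocount of 0.1 and 1 without mitochondrial genes.

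With the replicate number as a block, the PT calls were 1 between rUUO and UUO and 1 between rUUO and sham, the macrophage calls between rUUO and sham were 1, and the stromal calls were 0 between rUUO and UUO and 8 between rUUO and sham. Whether the numbers pair the samples could not be shown. Deviations from the group mean correlated by over 0.1 in 2 of 21 same-number pairs of sham samples (median 0.0144). Among sham pairs with different numbers 0 of 63 did (median -0.0081). Between PT surgeries it was 1 of 8 same-number pairs (median 0.0353) and 0 of 25 others (median -0.0136).

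With 1 sample left out, the counts ran from 5 to 10 for PT UUO against sham, 0 to 2 for PT rUUO against UUO, 1 to 3 for PT rUUO against sham, 2 to 6 for macrophage UUO against sham, 2 to 4 for macrophage rUUO against sham, 0 to 1 for endothelial UUO against sham and for endothelial rUUO against sham, 0 to 3 for stromal rUUO against UUO, 8 to 15 for stromal rUUO against sham and 0 to 3 for the interaction of rUUO against UUO. Between sham populations, the PT difference of Itgav was 0.051, that of Itga6 0.35 and that of Pxn 0.11 under quantile normalization, and that of Itga6 was 0.31 without mitochondrial genes, all of opposite sign to the values reported. Over 3503 recalculations of 166 member changes, 3278 kept direction and side of the threshold, 221 lost the threshold and 4 changed sign. Of 426 recalculations of 92 shares, 5 moved by more than the spread between samples, each under quantile normalization. Since depth is unknown, no limit from counting can be given for low members.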
